A study of Rattus norvegicus with 9 samples.

Results

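The activators of plasminogen, the urokinase receptor and the clade B serpins are represented here by 7 of the 38490 gene rows, taken by symbol: Plau, Plaur and Plat of plasminogen activation, and the clade B serpins Serpinb2, Serpinb1a, Serpinb6a and Serpinb9. Plau and Serpinb1a were chosen for, and selected on, their higher FPKM after antigen in these data, so their values in IgE/DNP against Ctrl are given as a description without a test. The cells were RBL-2H3, a leukemia line of rat basophils that stands in for mast cells (MCs), and their RNA was sequenced in 3 groups of 3 samples. Ctrl samples are called untreated in one label field, while a protocol field shared by all samples gives a sensitization, so whether they received IgE is not settled. IgE/DNP samples were sensitized with anti-DNP IgE at 50 ng/ml for 12 h and then given DNP-HSA, the antigen, at 100 ng/ml for 4 h. PF samples had the same IgE and antigen after 1 h with PF, an agent that the labels do not identify and that the methods of the study do not describe. For the antigen step of PF replicates 1, 2 and 3, one label field gives 4, 5 and 6 h and another gives 4 h. The labels do not say that replicates came from separate cultures, so p-values measure only the spread between these samples, which may be technical.

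Plasminogen circulates as an inactive precursor, and the urokinase-type activator encoded by Plau and the tissue-type activator encoded by Plat cut it into plasmin, a protease of fibrin and of matrix proteins. The urokinase receptor encoded by Plaur holds the activator at the cell surface. Serpins trap proteases, and among those of clade B, which mostly act inside cells, SERPINB2 inhibits urokinase, SERPINB1 inhibits elastase-like and chymotrypsin-like granule proteases and SERPINB9 inhibits granzyme B.

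Values are read as FPKM, which scales the fragments of a gene to transcript length and to sequencing depth, although the heading of the files names no unit. They were given for 18006 genes. The number of reads is not known from FPKM. Even steps in low values gave relative depths between 0.984 and 1.02, but from only 9 genes and by a rule loosened after a stricter one found none. Differences are log2 fold changes of FPKM + 1, which understate the change of low genes. They were tested with limma over all genes that reached 1 FPKM in 3 or more of the 6 samples compared, and a gene is said to pass at a Benjamini-Hochberg adjusted p of at most 0.05. For a single gene, a two-sided exact permutation test is given where stated, and it cannot go below 0.1 for 3 samples against 3.

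The labels give blood as the tissue, and the markers were those of the MC and basophil lineage. Of 10 such markers, 9 were at 1 FPKM or more in all 9 samples. Their summed level was 2760 to 2787 FPKM in Ctrl, 2561 to 2596 FPKM in IgE/DNP and 2702 to 2743 FPKM in PF. Fcer1g was the most abundant at 631 to 824 FPKM. The members of this sum moved in different directions. Mean FPKM in Ctrl, IgE/DNP and PF was 716, 639 and 808 for Fcer1g and 442, 424 and 482 for Fcer1a. It was 391, 370 and 294 for Gata2, 283, 238 and 228 for Kit and 200, 127 and 145 for Mcpt2. Of the others, Ms4a2 was higher in PF than in Ctrl, Cpa3 and Mcpt8 were lower and Hdc was near its Ctrl level. Tpsab1, a tryptase gene, had no value. Lists of 5 markers each for fibroblasts and for macrophages and monocytes had no gene at 1 FPKM in any sample. The same held for the 2 of 5 neutrophil markers with values, while S100a8, S100a9 and Elane had none. The highest B cell marker, Cd79a, reached 1.01 FPKM and the highest epithelial marker, Krt8, 1.10 FPKM. Of the T cell list, Cd3e was at 6.74 to 9.52 FPKM, while the other 4 markers were below 1 FPKM. Of the endothelial list, Pecam1 was at 43.7 to 61.8 FPKM and Tek at 6.28 to 8.10 FPKM, Kdr and Vwf were at or near 0 and Cdh5 had no value. The endothelial sum was 66.2 to 69.5 FPKM in Ctrl, 62.6 to 68.4 FPKM in IgE/DNP and 50.0 to 55.1 FPKM in PF. The part of these markers in the results was not tested.

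Among the activators, Plau (gene ID 25619) had 8.08, 9.60 and 7.45 FPKM in Ctrl. The IgE/DNP samples had 25.1, 23.5 and 26.5 FPKM. In the PF samples it was at 4.25, 5.21 and 5.39 FPKM. Every IgE/DNP sample lay above every Ctrl sample, every PF sample lay below every Ctrl sample, and no groups overlapped. The means were 8.38 FPKM in Ctrl, 25.0 FPKM in IgE/DNP and 4.95 FPKM in PF (n = 3 each). In IgE/DNP against Ctrl, the contrast for which it was picked, the means had a ratio of 2.99 and the log2 fold change of 1.48 ranked 14 from the highest of 10392 genes.

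Against IgE/DNP, Plau in PF fell by 2.13 on the log2 scale (standard error 0.0826, 95% CI -2.32 to -1.95, limma adjusted p = 4.53e-07). This was rank 8 from the lowest of 10329 genes. The IgE/DNP samples in this comparison are those whose high values chose the gene, so part of the fall is shared with that choice. In bulk samples, fewer cells of a type and less RNA per cell cannot be told apart. Against Ctrl, Plau was lower in PF as well, the log2 fold change being -0.65 (standard error 0.106, 95% CI -0.90 to -0.41, limma adjusted p = 9.07e-04), and the Ctrl samples here also entered the choice. The two-sided exact permutation p was 0.1 in both PF comparisons, and each of the 3 PF samples lay below each sample it was compared with.

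**Figure D1:**
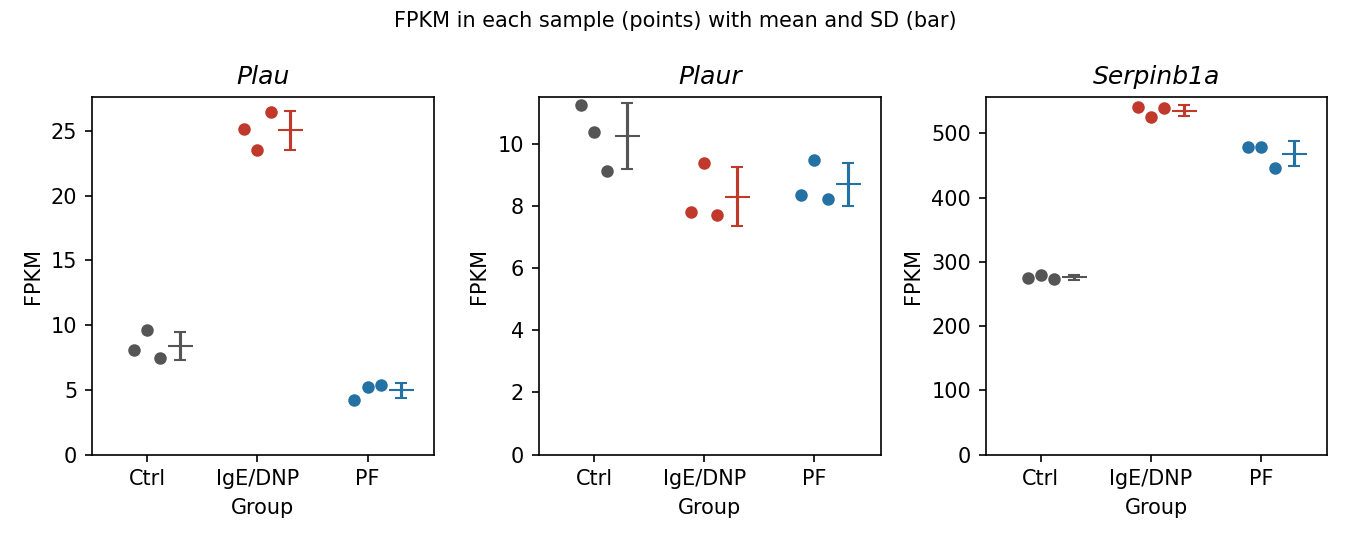
FPKM (vertical axes, from 0) of Plau, Plaur and Serpinb1a in each of the 3 samples of Ctrl, IgE/DNP and PF (points), with the mean and SD beside them. Plau was between 23.5 and 26.5 FPKM in IgE/DNP and at most 5.39 FPKM in PF, while Serpinb1a in PF, at 446 to 480 FPKM, lay nearer to IgE/DNP than to Ctrl.

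Plat (gene ID 25692), the other activator, was listed at 0.03 to 0.27 FPKM over the 9 samples, and its groups overlapped. It was below the filter in every comparison. With no filter on low values its limma adjusted p was between 0.140 and 0.786 over the 3 comparisons.

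Plaur (gene ID 50692), the receptor, was at 11.3, 10.4 and 9.13 FPKM in Ctrl. The IgE/DNP samples had 7.82, 9.40 and 7.70 FPKM. In PF it was at 8.37, 9.50 and 8.24 FPKM. The highest samples were those of Ctrl, but the lowest Ctrl sample lay within the range of both other groups, so the groups overlapped. The log2 fold change was -0.28 in IgE/DNP against Ctrl (standard error 0.0938, 95% CI -0.49 to -0.06) with a limma adjusted p of 0.0584, and the two-sided exact permutation p was 0.2. In PF against Ctrl it was -0.21 (standard error 0.0852, 95% CI -0.41 to -0.02), with a limma adjusted p of 0.0599. Neither passed. Both lie close to the threshold, and the call turned with the setting. Plaur passed in IgE/DNP against Ctrl in 3 of 13 alternative settings, with all 9 samples in the fit (limma adjusted p = 0.0448), without Ctrl replicate 3 (0.0269) and without IgE/DNP replicate 2 (0.0300). For PF against Ctrl it passed in 4 of 14, among them scaling to the mean sum of FPKM (0.0171), without Ctrl replicate 3 (0.0180) and without PF replicate 2 (0.0357), while with median ratios the log2 fold change was -0.15 (0.163). Between PF and IgE/DNP the log2 fold change of Plaur was 0.06 (95% CI -0.13 to 0.26, limma adjusted p = 0.577), and with scaling to the mean sum its sign turned to -0.026.

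Since FPKM is per length, the levels of activator and receptor can be set side by side within a sample, as a description chosen after their values were seen. The FPKM of Plau divided by that of Plaur was 0.718 to 0.924 in Ctrl, 2.50 to 3.44 in IgE/DNP and 0.508 to 0.654 in PF. Plau was thus the more abundant of the pair in the IgE/DNP samples and the less abundant in all samples of the other groups.

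Among the inhibitors, Serpinb1a (gene ID 291091), a rodent counterpart of SERPINB1, had 274, 280 and 274 FPKM in Ctrl. The IgE/DNP samples had 541, 525 and 540 FPKM. In PF it was at 479, 480 and 446 FPKM. The PF samples lay between the other groups and overlapped with neither. The means were 276 ± 3.57 FPKM, 535 ± 8.62 FPKM and 468 ± 19.4 FPKM (SD, n = 3 each), and by mean level the gene was number 308 of 18006 in Ctrl, 158 in IgE/DNP and 193 in PF. In the contrast that chose it, the ratio of the means was 1.94 and the log2 fold change of 0.95 ranked 39 from the highest.

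In PF against IgE/DNP, Serpinb1a fell by 0.19 on the log2 scale (standard error 0.0369, 95% CI -0.28 to -0.11, limma adjusted p = 0.00240). In PF against Ctrl it was higher by 0.76 (standard error 0.0398, 95% CI 0.67 to 0.85, limma adjusted p = 2.44e-06). These comparisons share their IgE/DNP or Ctrl samples with the contrast that picked the gene. The difference between the PF and Ctrl means was 74.1% of that between the IgE/DNP and Ctrl means for Serpinb1a, 192 of 259 FPKM. For Plau the same share was -20.6%, since the PF mean minus the Ctrl mean was -3.43 FPKM. The difference between the genes in this share was not tested. The share is of FPKM with no scaling added, and it depends on the scaling. For Serpinb1a, the log2 fold changes of PF and of IgE/DNP against Ctrl were 0.83 and 0.96 with median ratios. They were 0.68 and 0.97 with scaling to the mean sum.

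The other clade B serpins were low or without values. Serpinb6a (gene ID 291085) was at 0.15 to 0.71 FPKM with overlapping groups. Serpinb9 (gene ID 361241) was listed at 0 in 6 of 9 samples and reached 0.11 FPKM in PF replicate 3. Serpinb2 (gene ID 60325) had no value in any sample. Of the 7 members, 6 had values and 3 passed the filter on low values, Plau, Plaur and Serpinb1a, all of which passed it in each comparison.

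In PF against IgE/DNP, 2 of these 3 were lower and 0 were higher by limma, while of the 10329 genes tested 30.7% were lower and 18.1% were higher. In PF against Ctrl, 1 was lower and 1 higher, against 34.6% lower and 23.1% higher of 10361 genes. The members called here are the 2 chosen for their high IgE/DNP values, so nothing is read from these counts. In IgE/DNP against Ctrl, where 14.4% of 10392 genes were lower and 14.7% higher, only Plaur could be tested without having been chosen there, and it did not pass, with an unadjusted limma p of 0.0179. The split of all calls in the PF comparisons moved with the scaling. Against IgE/DNP, 1870 genes were higher and 3172 lower with no scaling added, 2715 and 2628 with median ratios, and 869 and 4306 with scaling to the mean sum. For PF against Ctrl the counts were 2389 and 3586, 3162 and 2997, and 1576 and 4318. Plau and Serpinb1a kept their directions and calls in both PF comparisons under each of these scalings, but the size of the Serpinb1a fall against IgE/DNP depended on it, with a log2 fold change of -0.13 with median ratios and -0.29 with scaling to the mean sum.

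By symbol the files hold 17 clade B serpins, of which 9 had values. Serpinb1a was the only 1 of them past the filter, and the next most abundant was Serpinb6a with a mean of 0.470 FPKM over the 9 samples. In the order of RefSeq genes (GRCr8, used for names and order only, since the files were made on rn6), 14 genes run from Serpinb6a to Serpinb1a, and 9 of them carry clade B symbols. Of the 14, 12 have a row in the files, 7 have values and 1, Serpinb1a, reached 1 FPKM in any sample. Near-identical members of such a cluster can share reads, and how RSEM divided them here is not known. Of the 3 nearest protein-coding genes beyond Serpinb1a on its other side, RGD1565323 and Mylk4 were at or near 0 FPKM in every sample. The nearest is Wrnip1, which encodes a helicase-interacting protein. It was higher in IgE/DNP than in Ctrl (log2 fold change 0.49, limma adjusted p = 0.00469) and in PF than in Ctrl (0.35, limma adjusted p = 0.00390), the latter not with PF replicate 1 only (0.0689).

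Plau has Adk, Ap3m1 and Vcl on one side and Camk2g, Ndst2 and Zswim8 on the other as its nearest protein-coding neighbours in the same order. These were taken by position, 3 on each side, after the values of Plau and Serpinb1a were seen. In IgE/DNP against Ctrl, Adk, an adenosine kinase gene, was higher by 0.33 (limma adjusted p = 0.00805) and Ap3m1, an adaptor protein gene, by 0.50 (limma adjusted p = 0.0107). Zswim8, a zinc finger gene, had a log2 fold change of -0.26 there (limma adjusted p = 0.0187). It did not pass without Ctrl replicate 1 or 2 or without IgE/DNP replicate 1. Against Ctrl, Adk and Ap3m1 were higher in PF as well, by 0.45 (limma adjusted p = 3.56e-04) and 0.37 (limma adjusted p = 0.00818). Zswim8 was lower in PF than in Ctrl by 0.19 (limma adjusted p = 0.0222). That call was lost with median ratios (0.0913), without Ctrl replicate 1 or 2 and without PF replicate 1 or 2. Ndst2, a heparan sulfate enzyme gene, fell in PF by 1.10 against IgE/DNP (limma adjusted p = 4.89e-06) and by 1.25 against Ctrl (limma adjusted p = 3.73e-06). Vcl, the gene of the adhesion protein vinculin, was at 48.6 FPKM in Ctrl, 52.5 FPKM in IgE/DNP and 48.3 FPKM in PF on average, and Camk2g, a calmodulin-dependent kinase gene, at 32.6, 31.7 and 34.3 FPKM. In PF against IgE/DNP the log2 fold changes were -0.12 for Vcl (limma adjusted p = 0.0441) and 0.11 for Camk2g (limma adjusted p = 0.0425), and neither passed in most of the alternative settings, among them those without any single IgE/DNP sample or without PF replicate 1.

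Around the activators, the list of plasminogen itself, its activators and receptors held 5 genes. Plg, the plasminogen gene, had means of at most 0.01 FPKM, so its transcript was near 0. Plgrkt, a plasminogen receptor gene, had a mean of 0.689 FPKM over the 9 samples and was tested only in IgE/DNP against Ctrl, with a limma adjusted p of 0.498. In the PF comparisons the genes of this list that were tested were Plau and Plaur, whose values are given above.

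Of 8 inhibitors of activators and plasmin, 6 had values. Serpini1, which encodes neuroserpin, was the most abundant at a mean of 7.76 FPKM over the 9 samples. It was 8.37 FPKM in PF and 7.16 FPKM in IgE/DNP on average, or 0.20 on the log2 scale (limma adjusted p = 0.0261), a difference that no longer passed in 8 of 14 alternative settings, among them those without IgE/DNP replicate 1 or 3 and without PF replicate 2 or 3 (adjusted p from 0.0503 to 0.279 over the 8). Serpinf2, which encodes the plasmin inhibitor, was below the filter, with means of 0.647 FPKM in Ctrl, 0.427 FPKM in IgE/DNP and 0.0700 FPKM in PF. Each PF sample lay below each sample of the other groups.

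Of 14 genes of surface binding and clearance, 10 were tested. In IgE/DNP against Ctrl 2 were higher, Itgam and Itgav, and 2 were lower, Itgb2 and Itgb3, with a median log2 fold change of 0.03 beside -0.01 over all genes tested. Of all genes tested there, 14.7% were higher and 14.4% lower. In PF against IgE/DNP 5 were higher and 2 lower (18.1% and 30.7% of all genes), with a median of 0.04 beside -0.04. In PF against Ctrl 4 were higher and 2 lower (23.1% and 34.6% of all genes), with a median of 0.03 beside -0.05. Itgam, which encodes an integrin chain that can associate with the receptor of urokinase on leukocytes, was at 24.0 ± 0.767 FPKM in Ctrl, 32.4 ± 1.64 FPKM in IgE/DNP and 27.3 FPKM on average in PF. Its log2 fold change was 0.42 in IgE/DNP against Ctrl (limma adjusted p = 6.98e-04). It was -0.24 in PF against IgE/DNP (limma adjusted p = 0.00422) and 0.18 in PF against Ctrl (limma adjusted p = 0.0133). Itgb2 went the other way in IgE/DNP against Ctrl, at -0.32 (limma adjusted p = 6.98e-04). Eno1, a glycolytic enzyme gene whose product also binds plasminogen at the surface, was the most abundant of the list at a mean of 1068 FPKM over the 9 samples, and it was higher in PF than in IgE/DNP by 0.20 (limma adjusted p = 9.05e-04), or by 0.098 with scaling to the mean sum (0.0114). Anxa2, whose product binds the tissue-type activator, had a mean of 124 FPKM. Its log2 fold change of 0.10 in PF against IgE/DNP passed (limma adjusted p = 0.0189) but was lost in 7 of 14 alternative settings, and in PF against Ctrl it was -0.026 with scaling to the mean sum and 0.12, with a limma adjusted p of 0.0151, with median ratios. Itgb1, an integrin chain at a mean of 111 FPKM, was higher in PF than in IgE/DNP by 0.14 (limma adjusted p = 0.00924) and did not pass with scaling to the mean sum (0.420).

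Of 14 substrates and matrix proteases downstream, 11 had values and 1 was tested in each comparison, Tgfb1, which encodes a growth factor whose latent form plasmin can release. It had means of 187 FPKM in Ctrl, 215 FPKM in IgE/DNP and 239 FPKM in PF. It was higher in IgE/DNP than in Ctrl by 0.21 (limma adjusted p = 0.00585) and higher in PF than in IgE/DNP by 0.15 (limma adjusted p = 0.0134), the latter not with scaling to the mean sum (0.318). The next most abundant, Timp1 and Mmp2, were at means of 0.232 and 0.140 FPKM over the 9 samples.

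Of 12 proteases that clade B serpins are known to inhibit, 9 had values and 4 were tested. Gzmb, which encodes granzyme B, was at 20.0, 18.1 and 19.1 FPKM in Ctrl, at 10.8, 9.04 and 12.9 FPKM in IgE/DNP and at 6.15, 5.25 and 8.82 FPKM in PF. The groups did not overlap, with Ctrl highest and PF lowest. Gzmb fell in IgE/DNP against Ctrl by 0.76 (standard error 0.107, limma adjusted p = 0.00161), in PF against IgE/DNP by 0.64 (standard error 0.168, limma adjusted p = 0.0125) and in PF against Ctrl by 1.40 (standard error 0.144, limma adjusted p = 7.10e-05). Against IgE/DNP its adjusted p was 0.0512 with no filter on low values.

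Ctsk, which encodes the cysteine protease cathepsin K, had means of 5.46 FPKM in Ctrl, 4.94 FPKM in IgE/DNP and 1.98 FPKM in PF, and it fell in PF against IgE/DNP by 0.99 (limma adjusted p = 1.83e-05). Casp8, the gene of an apoptosis initiator, had means of 12.9, 11.8 and 7.09 FPKM in the same order, and it fell in PF against IgE/DNP by 0.67 (limma adjusted p = 8.36e-05). Cma1, a MC chymase gene, had means of 20.6, 20.1 and 20.1 FPKM and did not pass in any comparison. Genes of the list that were higher numbered 0, 0 and 0 in IgE/DNP against Ctrl, PF against IgE/DNP and PF against Ctrl. Those that were lower numbered 1, 3 and 3 in the same order. Over all genes tested, 14.7%, 18.1% and 23.1% were higher and 14.4%, 30.7% and 34.6% were lower. The median log2 fold changes were -0.12, -0.65 and -0.95, beside -0.01, -0.04 and -0.05 over all genes tested.

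**Figure D2:**
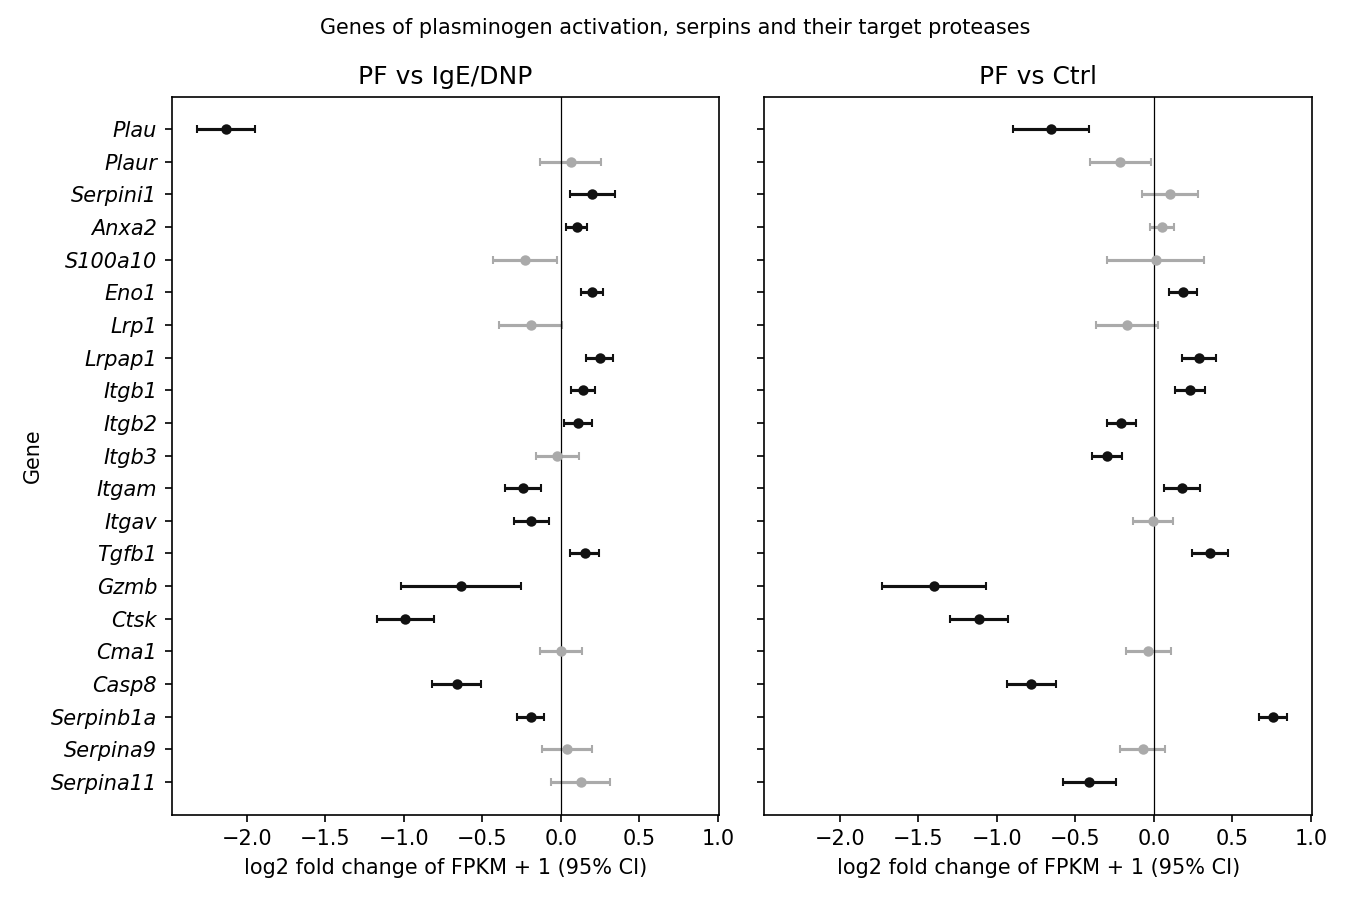
Log2 fold change of FPKM + 1 (horizontal axes) with its 95% CI for each tested gene of the lists (vertical axis), in PF against IgE/DNP and in PF against Ctrl, black where the limma adjusted p was at most 0.05 and grey otherwise. Plau lies at -2.13 and -0.65 and Serpinb1a at -0.19 and 0.76.

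Serpins of other clades numbered 25 by symbol, of which 15 had values. In IgE/DNP against Ctrl, 1 of 4 tested was lower, Serpina11, with means of 5.23 FPKM in Ctrl and 3.29 FPKM in IgE/DNP and a difference of -0.54 on the log2 scale (limma adjusted p = 0.00161). It was also lower in PF than in Ctrl (-0.41, limma adjusted p = 0.00159). Of all genes tested in IgE/DNP against Ctrl, 14.4% were lower and 14.7% higher, and the median of the 4 was -0.10 beside -0.01. In the PF comparisons 3 were tested. Against IgE/DNP 1 was higher, Serpini1, by the call that was lost in 8 of 14 settings, and 0 were lower (18.1% and 30.7% of all genes), with a median of 0.13 beside -0.04. Against Ctrl 0 were higher and 1 was lower (23.1% and 34.6% of all genes), with a median of -0.07 beside -0.05. Serpina9, at a mean of 7.14 FPKM over the 9 samples, did not pass in any comparison.

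By Pearson r over the 9 samples on log2(FPKM + 1), the 5 genes of 8230 most like Plau were Slamf1 (r = 0.995), Plek (0.993), Cldnd1 (0.991), Dusp4 (0.989) and Trim6 (0.989). The samples form 3 groups, so r mainly reflects the relative spacing of the group means, and it carries no p. It does not measure the size of a change. Dusp4, which encodes a MAP kinase phosphatase, had means of 67.3 FPKM in Ctrl, 112 FPKM in IgE/DNP and 50.2 FPKM in PF. Plek, which encodes the protein kinase C substrate pleckstrin, had means of 191, 287 and 161 FPKM in the same order.

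Most like Serpinb1a were Nr4a2 (r = 0.987), Lif (0.987), Hgh1 (0.986), Polg (0.984) and Slc44a1 (0.980). Nr4a2, an orphan nuclear receptor gene, had means of 6.06 FPKM in Ctrl, 23.1 FPKM in IgE/DNP and 17.2 FPKM in PF. Lif, a cytokine gene, had means of 112, 307 and 234 FPKM in the same order. The means were 10.25, 13.45 and 13.0 FPKM for Hgh1, 3.79, 7.28 and 6.91 FPKM for Polg and 22.4, 29.9 and 28.0 FPKM for Slc44a1. In PF against IgE/DNP, Hgh1, Polg and Slc44a1 did not pass (limma adjusted p = 0.481, 0.391 and 0.0752). With scaling to the mean sum Hgh1 and Slc44a1 did.

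Promoter windows from RefSeq (GRCr8), 250 bases before to 50 after the start, were found for 6 of the 7 members, and those of Plau, Plaur and Serpinb1a are shown because these are the members with measurable levels. They were searched on both strands for the letters of the TATA box (TATAAA), of AP-1 (TGANTCA), CRE (TGACGTCA), EGR (GCGNGGGCG), ETS (ACCGGAA), CEBP (TTGCNNAA) and NFAT (GGAAAA), and capitals mark the matches. The first is Plau at chr15:3511938-3512237 on the minus strand, the next Plaur at chr1:89181113-89181412 on the plus strand and the last Serpinb1a at chr17:31799196-31799495 on the plus strand.
Plau: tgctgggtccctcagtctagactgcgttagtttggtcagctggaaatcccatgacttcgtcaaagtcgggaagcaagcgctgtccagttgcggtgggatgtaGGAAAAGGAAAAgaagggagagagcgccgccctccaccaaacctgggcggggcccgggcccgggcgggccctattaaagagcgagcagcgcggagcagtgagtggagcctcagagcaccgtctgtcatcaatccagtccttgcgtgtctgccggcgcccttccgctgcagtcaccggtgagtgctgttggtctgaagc
Plaur: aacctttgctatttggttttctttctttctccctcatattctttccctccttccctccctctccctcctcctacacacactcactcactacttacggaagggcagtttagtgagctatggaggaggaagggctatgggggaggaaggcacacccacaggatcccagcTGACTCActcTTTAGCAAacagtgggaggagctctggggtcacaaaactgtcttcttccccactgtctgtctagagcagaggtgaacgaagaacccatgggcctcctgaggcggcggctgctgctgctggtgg
Serpinb1a: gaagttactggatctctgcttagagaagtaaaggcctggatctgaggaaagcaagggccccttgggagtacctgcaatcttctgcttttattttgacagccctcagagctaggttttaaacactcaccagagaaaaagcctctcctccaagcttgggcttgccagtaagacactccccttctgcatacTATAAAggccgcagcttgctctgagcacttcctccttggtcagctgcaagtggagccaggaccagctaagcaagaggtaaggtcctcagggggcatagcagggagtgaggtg
The Plau window held the NFAT letters at positions -148 and -142 from the start, in direct succession and without overlap. The Plaur window held the AP-1 letters at -83 and the CEBP letters at -73, and the Serpinb1a window held the TATA letters at -62. Of 33469 promoter windows in the table, 24.7% held the NFAT letters, 7.33% AP-1, 10.6% CEBP and 14.2% TATA. The CRE letters were in 1.83% of the windows, EGR in 4.98% and ETS in 4.08%, and none of these 3 were in the windows shown. A match describes letters in a window and not a binding site.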

How the data were processed

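RNA of 9 samples was sequenced, and the authors deposited a single column of values for each, taken to be FPKM (no unit is named in the heading). By the methods of the study, BGISEQ-500 reads were filtered with SOAPnuke, while the labels name Illumina library protocols. The submitters' processing notes name HISAT2 2.0.4, Bowtie2 2.2.5, RSEM 1.2.12 and rn6. The authors tested genes with DESeq2, which needs counts and was not used here. Samples were joined by gene identifier. Differences were fitted with limma 3.58.1 in R 4.3.3 (lmFit, eBayes with trend) on log2(FPKM + 1), each comparison on its own 6 samples, and adjusted over all genes tested. Tables were made with Python 3.11.15 and pandas 2.3.3.

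The members and lists were chosen with earlier results of these data known. Genes named are the members, list genes that passed at 0.05 with a change of 0.5 or more in size in any comparison, genes among the 3 most abundant of each list, and the 5 most like Plau and Serpinb1a among genes with a mean of at least 5 FPKM in a group. Other list genes, and the neighbours, were named after their values were seen. No 2 replicates were identical: at most 0.679% of values of expressed genes were equal. The fit was tested on simulated data. A first, stricter pass rule was not met, since too few of the changed genes were called, and it was replaced by a looser one after that result, with the fit unchanged. False calls kept within the first rule but exceeded the nominal share. Calls of small changes, and adjusted p-values near the threshold, are therefore less certain than their nominal values. Alternatives were another pseudocount, no filter, all samples in 1 fit, a replicate block, each sample left out, scalings, no trend, a threshold of 0.01 and PF replicate 1 only. Protein sequences were not used here.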

Additional observations from a re-analysis of the deposited data

How the results depend on the processing

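Plau and Serpinb1a kept their direction and calls in both PF comparisons under every alternative run. Nothing is read from their direction in IgE/DNP against Ctrl, which their choice fixed. When single samples were left out, the log2 fold change of Plau ran from -2.19 to -2.05 in PF against IgE/DNP and from -0.73 to -0.56 in PF against Ctrl, and that of Serpinb1a from -0.21 to -0.16 and from 0.74 to 0.79. With median ratios and with scaling to the mean sum, Serpinb1a was at -0.13 and -0.29 in PF against IgE/DNP. Plaur was the member whose call changed. In IgE/DNP against Ctrl it passed with all 9 samples in the fit at the same log2 fold change of -0.28, and ran from -0.36 to -0.21 with each sample left out. In PF against Ctrl it passed with scaling to the mean sum, at -0.29, and ran from -0.29 to -0.15. In PF against IgE/DNP its sign turned with scaling to the mean sum (-0.026, from 0.06). The cause was not tested.

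The labels tie no replicate number to a shared culture or batch, so the samples are taken to share only a number. Correlations of the deviations of same-numbered samples from their group means were between -0.073 and 0.182, and not over 0.1 for every pair in any comparison. In PF against Ctrl all 3 were positive (0.086, 0.182 and 0.079) and every sample correlated best with its own number, which is a hint from the data and not the design, while the other comparisons did not show this. With a block for the replicate number, 2697 genes were called in IgE/DNP against Ctrl (3031 without), 4675 in PF against IgE/DNP (5042) and 6009 in PF against Ctrl (5975). Under the block Plaur passed in PF against Ctrl, at the same log2 fold change of -0.21 (limma adjusted p = 0.0463), so 2 genes of the plasminogen list were called, and Serpini1 did not pass in PF against IgE/DNP (0.0547), which left 0 genes of the list of inhibitors and 0 of the serpins of other clades.

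At a threshold of 0.01, IgE/DNP against Ctrl had 817 genes higher and 652 lower, and PF against IgE/DNP had 1101 higher. With PF replicate 1 only, where the lone sample is assumed to vary like the others, 1178 genes were higher in PF against IgE/DNP and 1362 against Ctrl. Scaling to the mean sum gave 869 and 1576.

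List counts are small and move by single genes. With PF replicate 1 only, the surface list had 4 and 3 called genes in the PF comparisons (7 and 6 with all PF samples and the settings of the report), and the inhibitors and other serpins had 0 in PF against IgE/DNP. With no filter on low values, more genes were tested, and the substrates list had 2 called genes in each PF comparison. The inhibitors then had 0 in PF against IgE/DNP and 1 in PF against Ctrl, and other serpins had 2 in IgE/DNP against Ctrl and 3 in PF against Ctrl. The substrates list had 0 in PF against IgE/DNP with scaling to the mean sum. The plasminogen list had 1 called gene, Plaur, with all 9 samples in IgE/DNP against Ctrl and 2 with scaling to the mean sum in PF against Ctrl. Leaving out single samples moved the plasminogen list from 0 to 1 in IgE/DNP against Ctrl (without Ctrl replicate 3 or IgE/DNP replicate 2) and from 1 to 2 in PF against Ctrl (without Ctrl replicate 3 or PF replicate 2). Without IgE/DNP replicate 2, the count of inhibitors called in IgE/DNP against Ctrl went from 0 to 1 and that of other serpins from 1 to 2. In PF against IgE/DNP both of these lists went from 1 to 0 without IgE/DNP replicate 1 or 3 or PF replicate 2 or 3.

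Signs turned for some values that had not passed. Scaling to the mean sum turned Eno1 in IgE/DNP against Ctrl (0.0082), Serpina9 in PF against IgE/DNP (-0.047) and Anxa2 in PF against Ctrl (-0.026, against 0.12 with median ratios). Median ratios turned Cma1 in both PF comparisons (0.057 and 0.031) and Hgh1 in PF against IgE/DNP (0.011), which passed at -0.14 with scaling to the mean sum (limma adjusted p = 0.0495). Over the fits that each lack a sample, Cma1 ran from -0.043 to 0.050 in PF against IgE/DNP and from -0.077 to 0.015 in PF against Ctrl, Eno1 from -0.025 to 0.010 in IgE/DNP against Ctrl and Serpina9 from -0.021 to 0.079 in PF against IgE/DNP.

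Values near 0 FPKM carry few reads, and with no filter Plat, Serpinb6a and Serpinb9 did not pass in any comparison.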
